A study of Arabidopsis thaliana with 48 samples.

Results

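In rosette leaves of an Arabidopsis line short of the RNA methylase MTA, 1013 stretches of messenger RNA were bound by an antibody against N6-methyladenosine (m6A) in at least 2 of 6 libraries and gave no peak in any of 6 libraries of Col-0. They were chosen from the deposited peak lists. Peaks of all 12 antibody libraries were merged on each strand where they overlapped by at least 1 base, which turned 126111 peaks into 17699 regions. A library was said to hold a region when 1 of its peaks lay in it. Of these regions 1111 were held by at least 2 mta libraries and by no Col-0 library, and 1013 of them lay wholly inside the span of a gene on the same strand. They are called mta-only regions below. Another 98 lay outside such spans and were not used. The 1013 regions fell on 963 host genes, of which 913 carried 1 region, 49 carried 2 and 1, AT1G01320, carried 3. A single region lay in the overlapping spans of 2 genes, LINC4 and AT5G65780, so that there were 1014 pairs of a region and a host.

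The study compared a line with the mta mutation, rescued by an MTA transgene behind the ABI3 promoter, with the Col-0 wild type (WT). The ABI3 promoter is active in the embryo, so the line passes through seed development. Its MTA transcript in leaves is given below, and MTA protein was not measured in these data. Plants of both genotypes were 17 days old when water was withheld for 12 days (drought) or given as before (watered), and rosette leaves were harvested. The 4 groups were thus mta in drought, WT in drought, mta watered and WT watered, with 3 libraries each of m6A immunoprecipitation, mRNA, polysomal RNA and GMUCT, a method that reads RNA with a free 5′ phosphate and so uncapped, decaying transcripts.

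MTA is the catalytic subunit of the complex that writes m6A into plant mRNA. In Arabidopsis the mark lies mostly near the stop codon and in the 3′ untranslated region, and proteins with a YTH domain read it. An antibody can also pull down RNA that carries no m6A, so a region in the peak list is a stretch of antibody enrichment and not by itself a methylated base.

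MTA transcript was lower in the line in every library. In drought MTA stood at 10.6, 8.24 and 9.77 CPM (counts scaled to library size) in the 3 mta libraries, against 25.9, 25.2 and 18.9 CPM in the 3 WT libraries. The log2 fold change was -1.28 ± 0.18 (SE, n = 3 each; edgeR adjusted p = 3.07e-06). In watered leaves MTA stood at 9.73, 6.96 and 7.38 CPM in mta and at 17.7, 18.17 and 18.9 CPM in WT, a log2 fold change of -1.16 ± 0.19 (SE, n = 3 each; edgeR adjusted p = 9.6e-05). The peak lists held 7746 to 12228 peaks, and the sequencing depth behind them is unknown. The gene tables summed to 1504013 to 5503037 counts per mRNA library. The sums were 35833742 to 43032763 counts for polysomal RNA and 1313457 to 12421168 for GMUCT. The 3 leaf markers (RBCS1A, LHCB1.3 and RCA) summed to 10132 to 11061 CPM in mta and 6499 to 6643 CPM in WT in drought, and to 38676 to 42829 CPM in mta and 29789 to 32540 CPM in WT in watered leaves. The 3 flower and meristem markers summed to 6.38 to 7.82 CPM in mta and 8.50 to 11.9 CPM in WT in drought, and to 10.9 to 13.4 CPM in mta and 27.4 to 33.5 CPM in WT in watered leaves. The 3 seed markers summed to at most 0.703 CPM and the 2 guard cell markers to at most 10.9 CPM. The 2 root markers summed to 52.8 to 58.8 CPM in mta drought leaves and 32.6 to 35.4 CPM in WT drought leaves. In watered leaves the root markers summed to 192 to 197 CPM in mta and 119 to 140 CPM in WT. The leaf, flower and root sums did not overlap between the genotypes in either regime. Single markers did not all run with their sum. Of the 3 leaf markers, edgeR called 2 higher and 1 lower in mta in drought, and 3 higher in watered leaves. Only 1 of the 2 root markers and 1 of the 3 flower and meristem markers passed the filter on low counts. The root and flower sums can thus rest on 1 gene each. What part the differences between these sums had in the results below was not tested.

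The choice of members rests on the peak lists alone, so their presence, folds and widths are described without a test. At the inner edge of the rule, 555 of the 1013 regions were held by exactly 2 mta libraries. A further 282 were held by 3, 98 by 4, 58 by 5 and 20 by all 6. Just outside the rule lay 1304 regions held by 1 mta library and no WT library, and 620 regions held by at least 2 mta libraries and by 1 WT library. Without the m6A library of mta watered replicate 1 there were 639 members. A region without a peak in WT is a region that passed no peak caller there and not a region without antibody signal.

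The mta-only regions lay early in their genes. The median midpoint stood at 31.7% of the gene span counted from the gene start in the direction of transcription, with an interquartile range of 14.98% to 60.0%. In bases, the median midpoint was 626.5 from the gene start, on spans with a median of 2467 bases. Of the 1014 pairs, 64.7% had their midpoint in the first 50% of the span and 33.6% in the first 20%, while 9.86% lay in the last 20%.

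Regions of other kinds lay at the far end of the gene. The 1707 regions held by at least 2 WT libraries and by no mta library had a median position of 91.5%, with 4.33% of them in the first 50% of the span. The 4311 regions held by all 12 libraries had a median position of 91.7%, with 5.10% in the first 50% of the span. Over all 16292 regions inside gene spans the median was 88.8%. Few mta-only regions lay where most antibody regions of these leaves sat, with 2.37% of them in the last 10% of the span, against 59.1% of the WT-only regions and 61.8% of the regions of all 12 libraries.

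**Figure D1:**
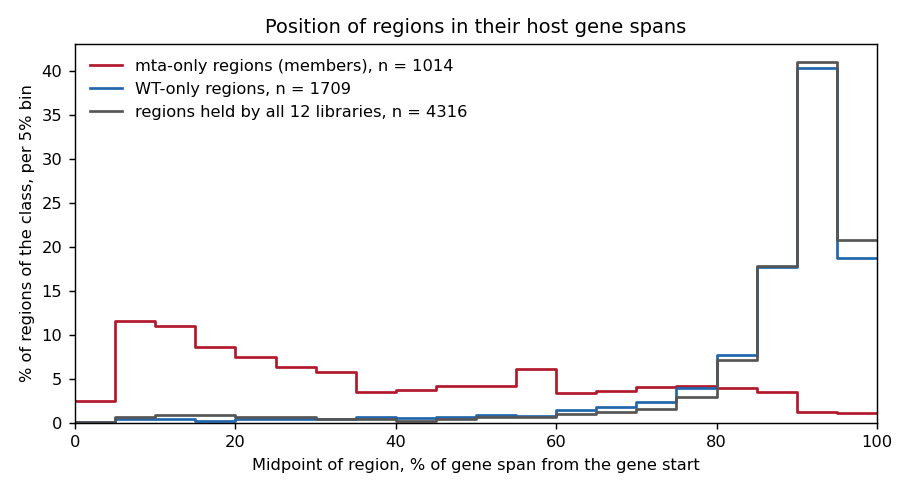
Position of antibody regions in their host genes. The x axis gives the midpoint in % of the gene span from the gene start, the y axis the % of each class in each 5% bin, and the lines stand for mta-only regions, WT-only regions and regions held by all 12 libraries (n counts pairs of a region and a host). The mta-only line is highest between 5% and 15% of the span and the other lines in the last 10%.

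The position was early whether a region was seen often or seldom. Regions held by exactly 2 mta libraries had a median position of 34.9%, and regions held by at least 3 had one of 27.4%. The 20 regions held by all 6 mta libraries had a median of 25.9%. The near misses held by at least 2 mta libraries and 1 WT library had a median of 33.6%, close to that of the members, and those held by 1 mta library alone had a median of 38.7%. In contrast the 1051 regions held by 1 WT library and no mta library had a median of 88.7%. Within the members, the 6 mta libraries each gave an early median, between 24.4% and 37.0%.

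More mta-only regions came from watered than from drought leaves. The 3 mta drought libraries held 244, 206 and 355 of them, against 751, 496 and 706 in the 3 mta watered libraries. As a share of the regions each library held inside gene spans, this was 3.07%, 2.91% and 3.78% in drought and 7.59%, 6.47% and 6.47% in watered leaves, so the regimes did not overlap. Of the 1013 regions, 56 were held by drought libraries only, 482 by watered libraries only and 475 by libraries of both regimes. Their median positions were 38.9%, 34.5% and 29.0%. The mta drought libraries also had fewer peaks in all, with 7746 to 10357 against 8374 to 12145 in the mta watered libraries, and the part of this difference was not tested.

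The enrichment of the mta-only regions was modest. Their median fold, as the authors' peak caller gave it and taken over the libraries that held each region, was 4.14, against 4.998 for WT-only regions and 6.67 for regions held by all 12 libraries. Regions held by all 6 mta libraries did not have higher folds than the rest, with a median of 3.67. The median width was 124 bases for mta-only regions, with a range of 51 to 553, against 274 bases for regions of all 12 libraries. A merged region grows with the number of peaks that form it, so widths of regions held by 2 and by 12 libraries are not on a par.

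How far the label holds was read in libraries that a choice had not used. When regions were chosen in drought libraries alone as held by at least 2 mta libraries and no WT library, 382 were found. Of these, 66.8%, 58.9% and 64.1% were held by the 3 mta watered libraries, against 31.7%, 25.7% and 9.95% by the 3 WT watered libraries. The 9.95% came from the WT library with the fewest peaks, 8269, against 11647 and 12228 in the other WT watered libraries. When regions were chosen in watered libraries alone, 1126 were found, and the separation was small. Of these, 24.1%, 21.6% and 36.4% were held by the 3 mta drought libraries, against 14.1%, 22.3% and 16.3% by the 3 WT drought libraries, so the genotypes overlapped. With 3 libraries against 3 the smallest two-sided exact permutation p is 0.1, so neither comparison can pass 0.05.

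Regions were also chosen the other way round. Of 1197 regions held only by WT in watered leaves, 15.9%, 10.5% and 28.4% were held by the mta drought libraries, against 73.8%, 65.7% and 75.5% by the WT drought libraries, so the genotypes did not overlap. Of 2017 regions held only by WT in drought, 20.5%, 10.3% and 32.6% were held by the mta watered libraries, against 57.1%, 67.3% and 30.04% by the WT watered libraries, so the genotypes overlapped. The lowest WT value came from the library with the fewest WT peaks, 8269. Over both regimes WT libraries held between 9.95% and 31.7% of the regions chosen as mta-only in the other regime, the 9.95% again in the library with 8269 peaks.

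**Figure D2:**
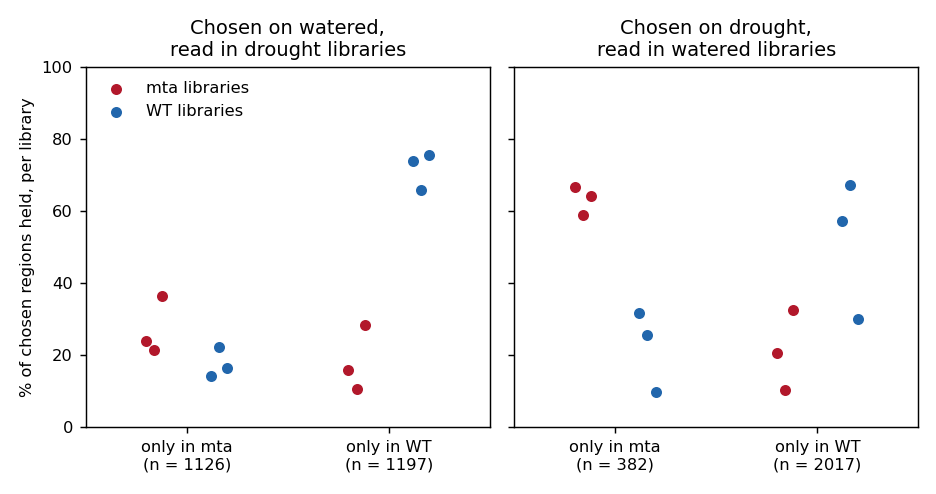
Regions chosen in 1 watering regime and looked for in the other. The y axis gives the % of the chosen regions that each library of the other regime held, the x axis whether they were chosen as held only in mta or only in WT, and each point is 1 library (3 per genotype). For regions chosen as mta-only on watered leaves the mta points (21.6% to 36.4%) and the WT points (14.1% to 22.3%) overlap.

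Many hosts also carried a region held in WT. Of the 963 hosts, 592 (61.5%) carried a region held by at least 1 WT library, while 371 carried none. The share of all genes with a WT-held region was not counted. Regions of any library sat on 12846 genes, beside 17666 genes tested for mRNA, so the 61.5% is not read as a trait of the hosts. On these 592 hosts there were 622 pairs of an mta-only region and its host, and in 523 of them (84.1%) the mta-only region lay upstream of every WT-held region of the gene. It lay downstream of all of them in 28 pairs and between them in 71. The median distance to the nearest WT-held region was 1025 bases. In 5 pairs, on AT4G37090, PARVUS, AT3G48800, AT4G12230 and MAP65-1, it was 50 bases or less; they were named after their values were seen. The mirror count ran the other way, since of 450 pairs of a WT-only region and a gene with an mta-held region 360 lay downstream of every mta-held region. The rule leaves out stretches with a WT peak, and the WT-only regions and those of all 12 libraries lay mostly near the gene end. Both counts thus restate the positions given above and are no separate result.

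Some hosts also carried regions of other kinds. A region of all 12 libraries sat on 204 of the hosts, which is 21.2% of the hosts and 4.81% of the genes with such a region. A WT-only region sat on 77, which is 8.00% of the hosts and 4.57% of the genes with a WT-only region. Hosts made up 5.38% of all 17666 genes tested for mRNA. The 4.81% and the 4.57% lay slightly below that share and are not read as a result about the hosts. The mta-only regions of hosts without a WT-held region had a median position of 36.9%, against 28.04% on hosts with one. By chromosome, 260 regions lay on chromosome 1, 162 on 2, 195 on 3, 145 on 4 and 248 on 5, with 2 in the plastid genome (on ATCG01130 and ATCG00790) and 1 in the mitochondrial genome (on ATMG00090). In 27 cases the region also overlapped a gene on the opposite strand. The annotation lists 960 hosts, each as protein coding.

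Of the 20 regions held by all 6 mta libraries, the 10 with the highest median fold are given here with their TAIR10 coordinates and their folds. The region on PTR3 (AT5G46050), a transporter of the NRT1/PTR family, lay at chr5:18678986-18679098 on the minus strand, 149 bases from the gene start. Its folds were 3.98, 3.97 and 5.87 in the 3 mta drought libraries and 9.09, 10.8 and 8.83 in the 3 mta watered libraries. PTR3 held a second mta-only region at 20.7% of its span, in 2 libraries, and no region of a WT library. The watered folds of the first region lay above the drought folds without overlap.

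The widest member, 553 bases, lay on TAF15b (AT5G58470), which encodes a TBP-associated factor, at chr5:23639998-23640550 on the minus strand. Its folds were 11.3, 6.95 and 5.87 in drought and 7.97, 7.58 and 3.74 in watered leaves, so the regimes overlapped. It lay 1300 bases upstream of the nearest WT-held region, and TAF15b carried a second mta-only region further upstream, at 6.81% of the span.

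The region on TSB2 (AT4G27070), a beta subunit of tryptophan synthase, lay at chr4:13586616-13586725 on the plus strand at 15.3% of the span. Its folds were 7.15, 6.60 and 5.06 in drought and 3.56, 6.32 and 5.68 in watered leaves. TSB2 has a close paralog, so its reads may be shared between copies. The region on CAX7 (AT5G17860), a calcium exchanger by its annotation, lay at chr5:5904176-5904347 on the minus strand at 12.7% of the span, with folds of 2.61, 3.77 and 3.85 in drought and 9.19, 7.58 and 3.37 in watered leaves.

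WRKY48 (AT5G49520), a WRKY transcription factor, was an exception to the usual order. Its mta-only region at chr5:20091247-20091417 on the plus strand lay 65 bases downstream of a WT-held region and not upstream of it. Its folds were 5.89, 4.68 and 5.29 in drought and 6.48, 8.31 and 4.16 in watered leaves. The region on ICK1 (AT2G23430), an inhibitor of cyclin-dependent kinases, lay near the middle of the gene at chr2:9977234-9977485 on the minus strand, with folds of 6.30, 3.58 and 4.80 in drought and 9.06, 4.63 and 6.09 in watered leaves.

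A late position was seen on 2 stress genes. The region on AIG1 (AT1G33960), a gene named for its induction by the bacterial effector avrRpt2, lay at chr1:12347762-12348196 on the plus strand at 70.9% of the span, with folds of 5.38, 5.80 and 5.99 in drought and 5.29, 4.99 and 5.24 in watered leaves. The region on HSP18.2 (AT5G59720), a small heat shock chaperone, lay at chr5:24062882-24063080 on the plus strand at 67.3%, with folds of 4.98, 5.15 and 6.13 in drought and 5.48, 4.58 and 4.12 in watered leaves. Neither host had a region of a WT library. The remaining 2 of the 10 lay on AT4G39720, at chr4:18430311-18430731 on the minus strand with a median fold of 6.66, and on AT5G24990, at chr5:8610595-8611036 on the plus strand with a median fold of 5.60. The other 10 regions held by all 6 mta libraries had median folds of 1.99 to 3.53 and positions of 6.63% to 80.4% of the span.

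**Figure D3:**
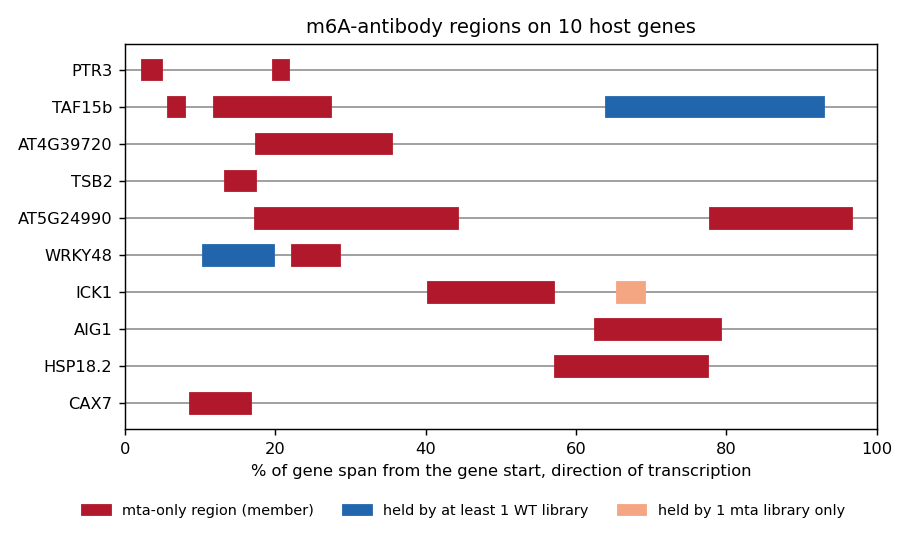
Antibody regions on the 10 host genes whose mta-only region was held by all 6 mta libraries with the highest folds. The x axis runs from the gene start to the gene end in % of the span; boxes mark mta-only regions, regions held by at least 1 WT library and regions held by 1 mta library only. Of these hosts only TAF15b and WRKY48 carry a WT-held region, downstream of the mta-only regions on TAF15b and upstream on WRKY48.

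**Figure D4:**
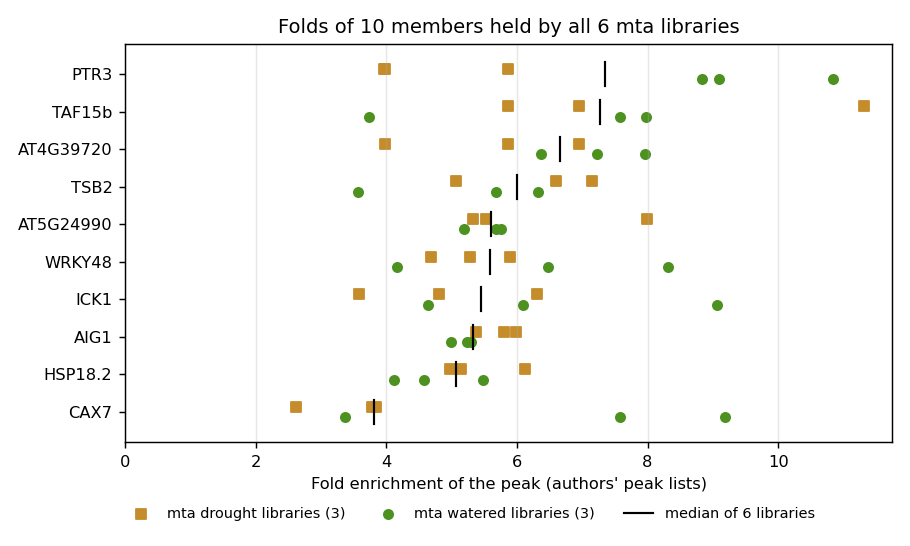
Fold enrichment of the same 10 regions in each mta library. The x axis gives the fold in the authors' peak lists, squares stand for the 3 mta drought libraries, circles for the 3 mta watered libraries and the black line for the median of all 6. PTR3 is the region with the highest median (7.35) and CAX7 the one with the lowest (3.81).

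The next regions were chosen by fold. The 5 members with the highest median fold among those held by at least 3 libraries lay on VIP4 (AT5G61150), a subunit of the PAF1 transcription elongation complex, AT3G03940, AT4G01895, WAVH2 (AT5G65683), a homolog of the ubiquitin ligase WAV3, and CYCH;1 (AT5G27620), a cyclin of the CDK-activating kinases. Their median folds were 8.48, 7.96, 7.85, 7.79 and 7.68 in that order. The regions on AT3G03940 (5.39% of the span), WAVH2 (19.3%) and CYCH;1 (7.17%) were each held by the 3 mta watered libraries and by no drought library. The region on VIP4 lay between WT-held regions, 154 bases from the nearest. That on AT4G01895 overlapped a gene on the opposite strand, and the same host carried a second mta-only region.

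The mRNA of the hosts was not used by the rule, but a peak needs reads, so the level of a transcript and the chance of a peak on it are not independent. Host mRNA had a median of 25.1 CPM in mta drought leaves and 22.8 CPM in WT drought leaves, and of 30.3 CPM in mta and 29.4 CPM in WT watered leaves. Over all 17666 genes tested the medians were 18.8 and 17.5 CPM in drought and 18.8 and 18.6 CPM in watered leaves. Hosts without a WT-held region stood apart by genotype in drought, with a median of 14.95 CPM in mta and 7.97 CPM in WT, against 18.5 CPM in mta and 15.9 CPM in WT in watered leaves. Hosts with a WT-held region did not run that way, with 31.2 CPM in mta and 34.2 CPM in WT in drought.

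Of the 963 hosts, 951 passed the filter on low counts in the mRNA libraries. The 12 that did not had totals of 0 to 77 counts over the 12 libraries. Among these 12, LINC4 and AT1G24851 were listed at 0 in every library although each carried an antibody region. The span of LINC4 lies wholly inside that of AT5G65780 on the same strand.

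In drought 301 of the 951 hosts (31.7%) had higher mRNA in mta than in WT and 299 (31.4%) had lower mRNA, by edgeR at an adjusted p of 0.05. Of all genes tested 26.6% were called higher and 26.1% lower, so both shares stood somewhat above the background. The median log2 fold change was -0.05 over the hosts and 0.01 over all genes tested. The hosts of regions held by all 12 libraries gave 17.7% higher and 39.2% lower. Gene span moved with this contrast over all genes, with a median log2 fold change of 0.37 in the shortest 20% of genes and -0.48 in the longest 20%. With that trend taken out, an alternative chosen after the data were seen, 254 hosts (26.7%) were higher and 324 (34.1%) lower, against 21.4% and 29.5% of all genes tested.

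The 2 kinds of host differed. Among the 360 tested hosts without a WT-held region 172 (47.8%) were higher and 56 (15.6%) lower in mta in drought. Among the 591 with one, 129 (21.8%) were higher and 243 (41.1%) lower. The absence of a WT peak is part of what set the first kind apart, and their lower WT level in drought is given above. They also had shorter spans, with a median of 1891 bases against 2835 bases on hosts with a WT-held region. Gene span moved with this contrast, and the counts with that trend taken out were not split by kind of host. The parts of WT level and of span in these counts were not tested.

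In watered leaves 122 hosts (12.8%) were higher and 94 (9.88%) lower in mta than in WT. Over all genes tested 8.5% were called higher and 9.28% lower. Hosts of regions held by all 12 libraries gave 3.91% higher and 10.1% lower. Again the hosts without a WT-held region held more genes on the higher side, with 71 higher and 35 lower, against 51 higher and 59 lower among hosts with one.

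The genotype effect on host mRNA differed between the regimes in many hosts. The test of that difference, drought minus watered, called 241 hosts (25.3%) higher and 223 (23.4%) lower, against 19.6% and 18% of all genes tested. Among hosts without a WT-held region it called 140 higher and 45 lower. Their lower WT level in drought and shorter spans, given above, are a limit here too, and their part was not tested.

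Defence genes were among the hosts with the largest mta effects on mRNA. AIG1 had 37.8, 42.0 and 43.7 CPM in mta drought leaves, against 0.455, 0.274 and 0.225 CPM in WT drought leaves. The log2 fold change was 6.88 ± 0.27 (SE, n = 3 each; edgeR adjusted p = 5.29e-15). In watered leaves AIG1 had 47.0, 55.1 and 55.2 CPM in mta and 8.30, 6.26 and 6.99 CPM in WT, a log2 fold change of 2.84 ± 0.15 (edgeR adjusted p = 9.49e-12). The transcript was thus present in all mta libraries and nearly absent from WT leaves in drought. The WT drought values rest on few reads, so the size of the drought fold change is uncertain.

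WRKY38 (AT5G22570), a WRKY transcription factor of the defence response, carried a region in 2 mta libraries. It had 11.1, 7.18 and 10.3 CPM in mta drought leaves, against 0, 0 and 0.225 CPM in WT drought leaves, which is 113 counts against 1. The ratio of mta to WT was 119, with a 95% interval of 21.0 to 4755 from counting alone (edgeR adjusted p = 1.15e-08). In watered leaves its log2 fold change was 1.303 ± 0.30 (SE, n = 3 each; edgeR adjusted p = 0.00394), and without WT watered mRNA replicate 1 the edgeR adjusted p was 0.0639.

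BIP3 (AT1G09080), an HSP70 chaperone of the endoplasmic reticulum, carried its mta-only region at 92.4% of the span in 5 mta libraries. It had 6.56, 8.77 and 8.55 CPM in mta drought leaves, against 0.228, 0.274 and 0 CPM in WT drought leaves, or 94 counts against 2. The ratio was 49.6, with a 95% counting interval of 13.4 to 416 (edgeR adjusted p = 2.65e-09). In watered leaves BIP3 had 52.1, 46.8 and 44.7 CPM in mta and 4.33, 5.05 and 3.49 CPM in WT, a log2 fold change of 3.40 ± 0.18 (edgeR adjusted p = 9.72e-12).

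LUP5 (AT1G66960), of the family of triterpene synthases, had the region closest to a gene end among the named members, at 97.9% of a span of 7166 bases. Its mRNA stood at 74.4, 68.9 and 76.0 CPM in mta drought leaves and at 2.73, 1.65 and 0.901 CPM in WT drought leaves. In watered leaves it stood at 31.4, 27.8 and 28.3 CPM in mta and at 2.71, 3.43 and 3.49 CPM in WT. The log2 fold changes were 5.35 ± 0.20 in drought (edgeR adjusted p = 1.79e-15) and 3.22 ± 0.20 in watered leaves (edgeR adjusted p = 1.19e-10).

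Other hosts were lower in mta. WYR (AT5G55820), which encodes an inner centromere protein, had 0, 0.266 and 0 CPM in mta drought leaves, against 2.50, 1.10 and 0.675 CPM in WT drought leaves. That is 1 count against 18, a ratio of mta to WT of 0.0587 with a 95% counting interval of 0.00141 to 0.372 (edgeR adjusted p = 0.00465). CYP706A6 (AT4G12320), a cytochrome P450, had 0, 0.266 and 0.488 CPM in mta and 2.50, 3.02 and 2.48 CPM in WT in drought. That is 3 counts against 33, a ratio of 0.0960 with a 95% counting interval of 0.0188 to 0.306 (edgeR adjusted p = 2.79e-05). Both regions were held by 2 watered libraries and by no drought library.

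AT3G15670 had 14.9, 19.1 and 20.0 CPM in mta drought leaves, against 137, 148 and 152 CPM in WT drought leaves, a log2 fold change of -3.01 ± 0.12 (edgeR adjusted p = 5.78e-14). It had at most 0.352 CPM in any watered library. Its region was held by 2 mta drought libraries, although the transcript was more abundant in WT.

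In watered leaves the largest falls among hosts were on AT5G52050, AT2G27389 and AT1G05675. AT5G52050, annotated as the efflux carrier DTX50, had 8.92, 8.56 and 9.85 CPM in mta and 43.5, 44.6 and 61.5 CPM in WT, a log2 fold change of -2.38 ± 0.17 (edgeR adjusted p = 6.25e-10). Its region was held by the 3 mta watered libraries, in which its transcript was lower than in WT. AT1G05675 had 20.3, 24.1 and 25.1 CPM in mta and 71.8, 68.1 and 81.1 CPM in WT, a log2 fold change of -1.65 ± 0.14 (edgeR adjusted p = 7.8e-09). AT2G27389 had 0.203, 0.803 and 0.176 CPM in mta and 1.80, 1.01 and 1.40 CPM in WT (log2 fold change -1.94 ± 0.62; edgeR adjusted p = 0.0319), and the adjusted p was 0.101 to 0.209 without WT watered mRNA replicate 1, mta watered mRNA replicate 1 or mta watered mRNA replicate 3.

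Hosts of the regions held by all 6 mta libraries were read beside these. Of the 10 with the highest folds, 9 had higher and 1, TAF15b, had lower mRNA in mta in drought by edgeR, and in watered leaves 4 were higher and 1, WRKY48, lower. Over all 20 hosts of such regions 14 were higher and 4 lower in drought, and 6 were higher and 2 lower in watered leaves. The shares over all genes tested were 26.6% higher and 26.1% lower in drought and 8.5% and 9.28% in watered leaves. These hosts were picked by a peak in every mta library and none in WT, so a transcript higher in mta is favoured by the choice. Of the 10, only TAF15b and WRKY48 carried a WT-held region. The counts are thus a description, and the part of transcript level in them was not tested. PTR3 had 90.3, 79.0 and 97.4 CPM in mta drought leaves, against 10.0, 8.50 and 10.4 CPM in WT drought leaves, a log2 fold change of 3.20 ± 0.13 (edgeR adjusted p = 1.47e-14). ICK1 had 14.9, 19.4 and 17.3 CPM in mta and 4.78, 4.39 and 3.83 CPM in WT in drought, a log2 fold change of 1.98 ± 0.22 (edgeR adjusted p = 1.09e-07). HSP18.2 had 20.2, 16.7 and 17.3 CPM in mta and 2.28, 1.65 and 3.83 CPM in WT in drought, a log2 fold change of 2.77 ± 0.26 (edgeR adjusted p = 1.33e-08). In each of these 3 genes the genotypes did not overlap. The watered call on WRKY48 (log2 fold change -0.47 ± 0.15; edgeR adjusted p = 0.0367) ended without WT watered mRNA replicate 1 or 2, mta watered mRNA replicate 2 or 3 or mta drought mRNA replicate 1, at adjusted p of 0.0550 to 0.201, and that on CAX7 (0.57 ± 0.14; edgeR adjusted p = 0.00628) without WT watered mRNA replicate 2, at 0.0782.

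The other hosts of that set gave smaller values, apart from AIG1 above. In drought the log2 fold change between mta and WT was 1.22 ± 0.20 for TSB2 (edgeR adjusted p = 2.89e-05), 0.85 ± 0.14 for CAX7 (edgeR adjusted p = 2.99e-05), 1.00 ± 0.29 for AT5G24990 (edgeR adjusted p = 0.00584) and 0.63 ± 0.17 for WRKY48 (edgeR adjusted p = 0.00315). TAF15b had 35.1, 39.6 and 41.0 CPM in mta drought leaves and 48.5, 49.4 and 48.9 CPM in WT drought leaves, a log2 fold change of -0.34 (edgeR adjusted p = 0.0206). Its adjusted p was 0.0987 without mta drought mRNA replicate 1. AT4G39720 had 2.02, 3.19 and 2.93 CPM in mta and 0.455, 1.65 and 1.35 CPM in WT in drought (log2 fold change 1.25 ± 0.50; edgeR adjusted p = 0.0407). Its adjusted p was 0.0597 to 0.187 without WT drought mRNA replicate 1 or 3 or mta drought mRNA replicate 2 or 3. Among the hosts of the 5 regions with the highest folds of those held by at least 3 libraries, AT4G01895 was higher in mta in drought (log2 fold change 2.67 ± 0.40; edgeR adjusted p = 6.95e-06) and AT3G03940 lower (-0.33 ± 0.11; edgeR adjusted p = 0.0147), while VIP4, WAVH2 and CYCH;1 did not pass, with values of -0.09, 0.78 and -0.09. The call on AT3G03940 ended without WT drought mRNA replicate 1 or 2 or mta drought mRNA replicate 1, with an adjusted p of 0.0524 to 0.0840, and its value was 0.07 with the trend along gene span taken out. WAVH2 passed without WT drought mRNA replicate 3 (1.10; edgeR adjusted p = 0.0398).

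The pathway lists held 9 hosts. Of 113 genes matched in lists of m6A writers and readers, drought and abscisic acid response, photosynthesis, salicylate and immune response, heat shock and chaperones, senescence and autophagy, and tissue markers, 9 were hosts. This is 8.41% of the 107 list genes tested, against 5.38% of all 17666 genes tested. No matched m6A writer (3 genes), no m6A reader (12) and no gene of senescence and autophagy (10) was among them. Over all measured members of the drought and abscisic acid list, whether hosts or not, 4 of 23 were higher and 18 lower in mta in drought. In the salicylate and immune list 20 of 23 were higher and 1 lower, in the heat shock list 6 of 12 were higher and 4 lower, and in the photosynthesis list 12 of 20 were higher and 5 lower. Of the 3 matched writers 1 was higher and 2 lower, of the 12 readers 0 were higher and 5 lower, and of the 10 senescence and autophagy genes 7 were higher and 1 lower. In watered leaves 9 were higher and 5 lower of the drought list, 12 and 3 of the salicylate list, 10 and 0 of the heat shock list and 7 and 0 of the photosynthesis list. These counts are over the lists and not over the hosts. Over all genes tested 26.6% were called higher and 26.1% lower in drought, and 8.5% and 9.28% in watered leaves.

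Salicylate genes gave 3 hosts. EDS5 (AT4G39030, chr4:18185957-18186106, plus strand), a transporter needed for salicylate synthesis, carried a region in 4 mta libraries, 2814 bases upstream of the nearest WT-held region. It had 40.1, 47.6 and 54.0 CPM in mta drought leaves, against 3.87, 5.76 and 6.75 CPM in WT drought leaves, a log2 fold change of 3.11 ± 0.18 (edgeR adjusted p = 2.56e-12). NIMIN1 (AT1G02450) encodes a partner of NPR1, a receptor of salicylate. It had 16.4, 16.0 and 14.2 CPM in mta and 0.910, 1.10 and 0 CPM in WT in drought, a log2 fold change of 4.53 ± 0.39 (edgeR adjusted p = 2.86e-09). WRKY70 (AT3G56400), a transcription factor of the salicylate response, had 243, 206 and 235 CPM in mta and 25.0, 15.9 and 26.1 CPM in WT in drought, a log2 fold change of 3.34 ± 0.13 (edgeR adjusted p = 6.75e-15). WRKY70 carried 2 mta-only regions, at 14.2% and 59.4% of the span, with median folds of 2.54 and 2.14. In watered leaves EDS5 was higher in mta (1.26 ± 0.15; edgeR adjusted p = 2.79e-06), while NIMIN1 (0.30) and WRKY70 (-0.21) did not pass.

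Drought genes gave 3 hosts as well, with low folds. COR47 (AT1G20440), a dehydrin, RD22 (AT5G25610), a drought-induced protein of the BURP family, and RD26 (AT4G27410), a NAC transcription factor, carried regions in watered libraries only, at 73.8%, 75.7% and 66.6% of the span with median folds of 2.13, 2.24 and 2.52. COR47 had 1353, 1521 and 1372 CPM in mta drought leaves, against 3233, 3482 and 3559 CPM in WT drought leaves, a log2 fold change of -1.27 ± 0.10 (edgeR adjusted p = 4.98e-10). RD22 was lower in mta in drought by -0.80 ± 0.10 on the log2 scale (edgeR adjusted p = 6.14e-07) and RD26 by -0.63 ± 0.09 (edgeR adjusted p = 5.67e-06). In watered leaves COR47 had 359, 423 and 362 CPM in mta and 482, 542 and 410 CPM in WT (log2 fold change -0.33 ± 0.10; edgeR adjusted p = 0.0227), with an adjusted p of 0.0582 to 0.150 without WT watered mRNA replicate 1 or 2 or mta watered mRNA replicate 1 or 3. RD22 in watered leaves did not pass (-0.15), but passed without mta watered mRNA replicate 1 (-0.30; edgeR adjusted p = 0.0190). None of the 3 had a region of a WT library.

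RBCS2B (AT5G38420), a small subunit of Rubisco with near-identical copies between which reads may be split, carried a region in 2 mta drought libraries at 13.6% of its span. Its mRNA stood at 42.9, 31.6 and 30.04 CPM in mta drought leaves, against 15.02, 12.9 and 13.3 CPM in WT drought leaves, a log2 fold change of 1.34 ± 0.13 (edgeR adjusted p = 1.98e-08). Its transcript was far more abundant in watered leaves, at 1185 to 1220 CPM in mta, where no library held the region.

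Drought itself lowered many of the hosts. In mta, 463 of the 951 hosts (48.7%) were lower and 265 (27.9%) higher in drought than in watered leaves, against 35.3% lower and 35.1% higher of all genes tested. In WT, 433 hosts (45.5%) were lower and 265 (27.9%) higher, against 35.3% and 32.6%. The median log2 fold change of the hosts was -0.32 in mta and -0.26 in WT, against -0.01 and -0.01 over all genes tested. Hosts of regions held by all 12 libraries stood on the other side, with 27.8% lower and 42.8% higher in mta and 19.2% lower and 45.7% higher in WT. These shares go with the greater number of mta-only regions in watered leaves, and the part of transcript level in the choice of members was not tested.

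The hosts without a WT-held region are given apart, with the limit that a low WT level in drought bears on whether WT has a peak. Among the 360 of them tested, 210 (58.3%) were lower and 65 (18.1%) higher in drought in WT, against 174 lower and 109 higher in mta. AIG1 was an example, with a log2 fold change of -4.38 ± 0.40 in WT (edgeR adjusted p = 1.97e-09) and of -0.35 ± 0.11 in mta (edgeR adjusted p = 0.0101). WRKY70 was another, with -3.48 ± 0.13 in WT (edgeR adjusted p = 8.11e-16) and 0.06 in mta, which did not pass.

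**Figure D5:**
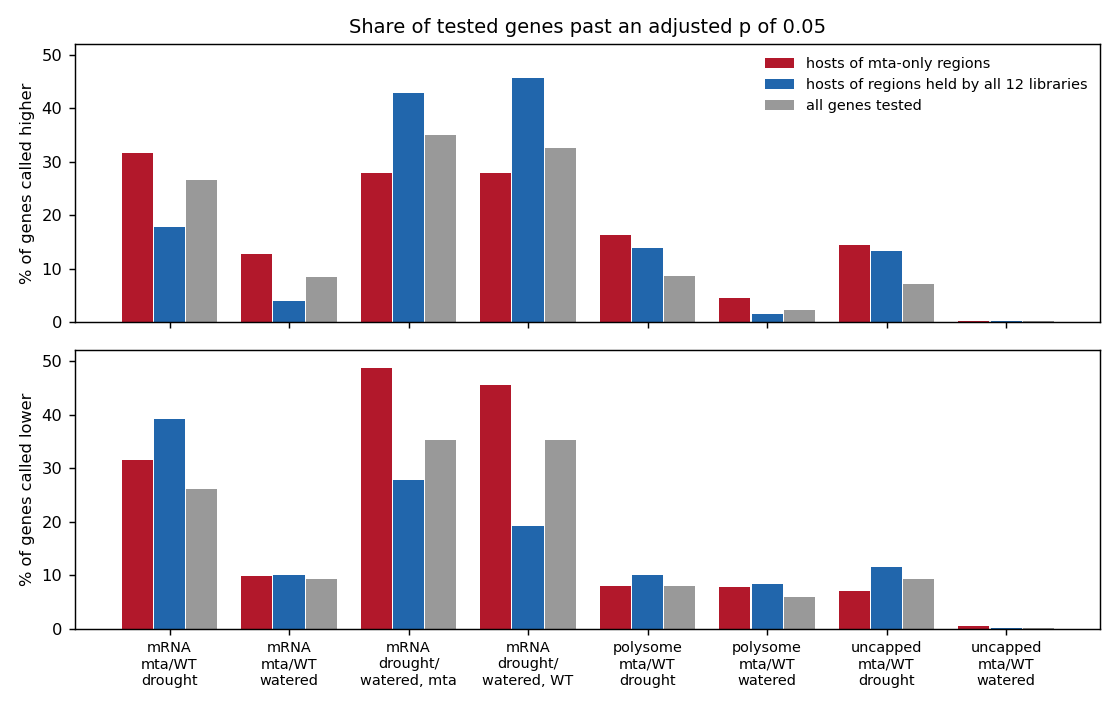
Share of tested genes called higher (upper panel) and lower (lower panel) by edgeR at an adjusted p of 0.05. The x axis gives the contrast, the y axis the % of genes, and bars stand for hosts of mta-only regions, hosts of regions held by all 12 libraries and all genes tested. In drought 16.2% of the hosts of mta-only regions are higher in polysome association and 14.5% in uncapped share, against 8.72% and 7.18% of all genes.

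Polysome association, the polysomal level minus the mRNA level on the log2 scale, was higher in mta for more hosts than the background in drought. Of 961 hosts tested, 156 (16.2%) were higher and 76 (7.91%) lower in mta than in WT, against 8.72% higher and 8.03% lower of all genes tested. The median of the difference was 0.08 over the hosts and -0.04 over all genes. Hosts of regions held by all 12 libraries came close, with 13.9% higher and 9.96% lower. Without mta drought mRNA replicate 2 the count of higher hosts was 101. With the trend along gene span taken out, 89 hosts (9.26%) were higher and 46 (4.79%) lower, against 5.77% and 4.88% of all genes.

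FLA15 (AT3G52370), a fasciclin-like arabinogalactan protein, and AT3G28510 had the largest rises of polysome association in drought by the rule. FLA15 had 2.92, 3.42 and 1.36 polysomal CPM in mta and 0.519, 0.364 and 0.297 polysomal CPM in WT, on mRNA of 0.505, 0 and 1.22 CPM in mta and 0.910, 0.548 and 2.03 CPM in WT. The difference was 3.66 ± 0.87 on the log2 scale (edgeR adjusted p = 0.00332), with an adjusted p of 0.0690 without WT drought mRNA replicate 3. AT3G28510 had 13.2, 11.1 and 15.9 polysomal CPM in mta and 0.0577, 0 and 0 in WT, and its mRNA held 3 counts in WT, so its call (edgeR adjusted p = 0.0412) rests on few reads and ended without 1 of 7 libraries, which were each of the 3 WT drought mRNA libraries, WT drought polysomal replicates 2 and 3 and mta drought mRNA replicates 1 and 2, at adjusted p of 0.0523 to 0.119. The largest falls were on AT3G08600 (-2.08 ± 0.57; edgeR adjusted p = 0.0112) and AT1G53035 (-1.59 ± 0.40; edgeR adjusted p = 0.006). AT3G08600 had 1.41, 2.18 and 1.56 polysomal CPM in mta and 1.44, 1.98 and 1.73 polysomal CPM in WT, which overlapped. Its mRNA stood at 2.27, 2.66 and 1.95 CPM in mta and 0.683, 0.548 and 0.450 CPM in WT, so the fall lay on the mRNA side of the difference. AT1G53035 had 1.62, 1.35 and 1.62 polysomal CPM in mta and 3.69, 2.60 and 3.02 polysomal CPM in WT, and its region was held by the 3 mta watered libraries.

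In watered leaves 44 hosts (4.58%) were higher and 74 (7.70%) lower in polysome association in mta, against 2.37% and 5.89% of all genes tested. The count of higher hosts was 24 without WT watered mRNA replicate 1. The count of lower hosts was 44 to 49 without WT watered mRNA replicate 2, WT drought mRNA replicate 3 or any 1 of the 6 polysomal libraries of watered leaves. With the trend along gene span taken out 26 hosts (2.71%) were higher and 117 (12.2%) lower, against 1.35% and 9.32% of all genes. CAX7 was among the higher hosts, with 28.3, 33.2 and 34.8 polysomal CPM in mta and 12.7, 13.3 and 13.3 in WT. Its difference was 0.66 ± 0.17 in watered leaves (edgeR adjusted p = 0.012) and 0.54 ± 0.17 in drought (edgeR adjusted p = 0.0274).

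The uncapped share, the GMUCT level minus the mRNA level on the log2 scale, was also higher in mta for more hosts than the background in drought. Of 958 hosts tested, 139 (14.5%) were higher and 68 (7.10%) lower, against 7.18% and 9.28% of all genes tested, and the median difference was 0.07 over the hosts and -0.09 over all genes. Hosts of regions held by all 12 libraries gave 13.4% higher and 11.5% lower. Among hosts that also carried a WT-held region 115 of 591 (19.5%) were higher, against 24 of 367 (6.54%) without one. Hosts with one had longer spans, with a median of 2835 against 1891 bases. More of them were lower in mRNA in mta in drought, 41.1% against 15.6%. The parts of span and mRNA in this split were not tested. Polysome association and uncapped share both use the mRNA libraries, and gene span moved with both. The median uncapped difference was -0.48 in the shortest 20% of genes and 0.39 in the longest 20%. With that trend taken out 56 hosts (5.85%) were higher and 30 (3.13%) lower in uncapped share, against 2.84% and 4.101% of all genes.

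CYP706A6 and MCM4 had the largest rises of uncapped share in drought by the rule, and TBL45 and AT1G52905 the largest falls. MCM4 (AT2G16440), a subunit of the replicative helicase, had 4.06, 4.89 and 6.14 GMUCT CPM in mta and 1.19, 1.84 and 0.701 GMUCT CPM in WT, on mRNA of 3.28, 0.532 and 1.71 CPM in mta and 2.28, 2.74 and 2.25 CPM in WT. Its difference was 2.44 ± 0.60 (edgeR adjusted p = 0.00476). CYP706A6 had 0, 1.96 and 1.08 GMUCT CPM in mta and 1.43, 0.921 and 1.05 GMUCT CPM in WT, which overlapped. Its call (3.20 ± 0.84; edgeR adjusted p = 0.00831) rests on the few mRNA counts given above. TBL45 (AT2G30010), of a family of wall polysaccharide acetyltransferases, had 1.63, 3.91 and 1.99 GMUCT CPM in mta and 1.66, 2.46 and 4.56 GMUCT CPM in WT, with 27 mRNA counts in mta and 2 in WT. Its difference was -3.83 ± 0.88 (edgeR adjusted p = 0.00284). AT1G52905 had 2.44, 1.47 and 0.903 GMUCT CPM in mta and 2.14, 2.76 and 3.50 GMUCT CPM in WT, a difference of -2.20 ± 0.50 (edgeR adjusted p = 0.00247). The GMUCT levels behind these 4 calls were low, at most 6.14 CPM.

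In watered leaves 2 hosts were higher and 4 lower in uncapped share in mta, against 0.167% and 0.183% of all genes tested. They were named after their values were seen. AT4G24840 (1.18 ± 0.16; edgeR adjusted p = 0.000161) and GRP-3 (0.69 ± 0.16; edgeR adjusted p = 0.0375), a glycine-rich protein, were higher. BBX15 (-0.84 ± 0.15; edgeR adjusted p = 0.00364), of the B-box zinc finger family, GDC1 (-1.34 ± 0.28; edgeR adjusted p = 0.0236), needed for the stacking of thylakoids, AT1G64140 (-0.72 ± 0.17; edgeR adjusted p = 0.0455) and AT4G32330 (-0.79 ± 0.19; edgeR adjusted p = 0.0494) were lower. AT4G24840 had 79.5, 109 and 111 GMUCT CPM in mta and 49.0, 46.7 and 45.6 GMUCT CPM in WT, which did not overlap. The count of higher hosts lay between 1 and 4 and that of lower hosts between 1 and 9 when single libraries were left out, the highest values coming without WT watered mRNA replicate 3 and without WT drought GMUCT replicate 1.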

How the data were processed

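The 48 libraries form 16 groups of 3 (2 genotypes, 2 watering regimes, 4 assays). For mRNA, polysomal RNA and GMUCT the authors deposited raw counts per gene, made per the file headers with featureCounts 2.0.1 or 2.0.3 on whole TAIR10 gene spans, introns included; GMUCT was counted without strand, and the polysomal tables count both reads of a pair. For the m6A libraries the authors deposited peak lists per library and strand with a fold enrichment (a ratio), a −log10 p-value, a −log10 q-value and a score per peak. FastQC, Trim Galore, cutadapt, STAR, MACS2, bedtools and SAMtools were used per the submitters' processing notes. The background library of the peak calling is not given in the sources used here.

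Peaks were merged in Python 3.11.15 with pandas 2.3.3, and the smallest −log10 q of the deposited peaks was 2.00. Position is the midpoint of a region in the gene span, without exon or UTR annotation. Counts were tested in R 4.3.3 with edgeR 4.0.16 (filterByExpr with a minimum count of 10 and a minimum total of 15, TMM scaling, quasi-likelihood F test, 1 mean per group, all 12 libraries of an assay in 1 model, or 24 for the differences between assays), with Benjamini-Hochberg adjustment over all genes tested. CPM are relative to the scaled totals. Intervals of count ratios are exact, at 95%, and cover counting error only. Library depth sets the precision of each value. DESeq2 1.42.0, no filter, a replicate block, single libraries left out, other merging, fold, q and library thresholds, and (added after the data were seen) removal of the trend along gene span were the alternatives. On simulated counts for watered mta against WT the mRNA test recovered 92% of 100 genes changed by 2 on the log2 scale and 79% of 100 changed by 1, with 14 false calls. For watered polysome association the test recovered 72% and 57%, with 7 false calls, and for watered uncapped share 80% and 45%, with 4 false calls.

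Members and lists were chosen with earlier results of these data known. Named are the 10 members held by most mta libraries, the 5 with the highest fold among those held by 3 or more, hosts with the largest called changes, no overlap between groups and a log2 CPM of 2 or more on average, hosts in the lists, and MTA. For hosts named by polysome association or uncapped share, the levels of a single assay could still overlap between the genotypes. Of 127 genes written into lists 116 entries were matched to an annotated gene by symbol and identifier. Whether the 3 libraries of each group stem from different plants is not in the labels, so p-values cover only the variation among these libraries, which may be technical, and same-numbered libraries are not named as pairs. Tables of noncoding RNA were not used here, and no sequence is shown because no genome of the build was used here.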

Additional observations from a re-analysis of the deposited data

Results flagged for a closer look

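For 26 of the named hosts the effect of mta on mRNA differed between drought and watered leaves, by the edgeR test of the difference of the log2 fold changes (drought minus watered) at an adjusted p of 0.05. A positive value means that mta stood higher against WT in drought than in watered leaves. The 10 largest positive values were those of WRKY38 (5.14), NIMIN1 (4.23), AT2G27389 (4.06), AIG1 (4.04), TBL45 (4.02), AT3G28510 (3.78), WRKY70 (3.54), AT5G52050 (2.88), AT1G05675 (2.74) and LUP5 (2.13).

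Smaller positive values were those of BIP3 (2.00), AT3G08600 (1.85), EDS5 (1.85), AT4G01895 (1.68), ICK1 (1.58), PTR3 (1.53), WRKY48 (1.10), RBCS2B (1.03) and TSB2 (0.97). Negative values, where mta stood lower against WT in drought than in watered leaves, were those of AT3G15670 (-6.39), WYR (-3.54), CYP706A6 (-3.08), COR47 (-0.94), RD22 (-0.65), RD26 (-0.49) and AT3G03940 (-0.43). The value of AT3G15670 rests on watered libraries with at most 0.352 CPM, and WRKY38, BIP3, WYR, CYP706A6, AT3G28510 and TBL45 had between 1 and 3 mRNA counts in 1 drought group, so the size of these values is uncertain. AIG1 had at most 0.455 CPM and NIMIN1 at most 1.10 CPM in a WT drought library. AT2G27389 had at most 0.803 CPM in an mta watered library. The size of the values of these 3 hosts is uncertain as well.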

How the results depend on the processing

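The median position of the mta-only regions lay between 27.5% and 33.9% of the span as each m6A library was left out in turn, and at 28.9% with peaks at a −log10 q of at least 5. The number of members lay between 639 (without mta watered replicate 1) and 1238 (without WT watered replicate 1), and 458 remained when 3 mta libraries had to hold a region.

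With the hosts of those 458 regions alone, which are fewer genes, the counts of higher and lower hosts were 153 and 133 for mRNA mta against WT in drought, 63 and 46 in watered leaves, 139 and 196 for drought in mta, 124 and 203 for drought in WT, 81 and 40 for polysome association in drought, 24 and 29 in watered leaves, and 66 and 30 for uncapped share in drought, with 2 lower in watered leaves. With the trend along gene span removed the counts were 89 and 46 for polysome association in drought, 26 and 117 in watered leaves, 56 and 30 for uncapped share in drought and 1 and 2 in watered leaves. DESeq2 called 72 hosts higher in polysome association in watered leaves, and 8 higher and 10 lower in uncapped share in watered leaves, where no filter gave 5 and 9. The shares of all genes called by DESeq2 or without the filter are not given here, so these counts are not read as a result about the hosts. The causes of these shifts were not tested. The 458 regions lay on 447 hosts, against 963 for all members. In the main fits 26.6% of all genes tested were higher and 26.1% lower for mRNA in drought, and 8.5% and 9.28% in watered leaves. For drought itself the shares were 35.1% and 35.3% in mta and 32.6% and 35.3% in WT. For polysome association they were 8.72% and 8.03% in drought and 2.37% and 5.89% in watered leaves. For uncapped share they were 7.18% and 9.28%, and 0.167% and 0.183%.

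Without single libraries the counts of higher and lower hosts lay between 24 and 63 and between 44 and 77 for polysome association in watered leaves, between 101 and 179 and between 56 and 78 in drought, and between 1 and 4 and between 1 and 9 for uncapped share in watered leaves. The shares of all genes called in the fits without single libraries are not given here, so these counts show only how the host counts moved. The mRNA change of AT3G03940 in drought was 0.066 with the span trend removed, against -0.33.

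A replicate block was fitted although same-numbered libraries shared only a number, with correlations of their deviations between -0.0875 and 0.185. The block gave 1 higher and 2 lower hosts for uncapped share in watered leaves and kept the other 14 counts within 1.5 times. The shares of all genes called with the block are not given here. Among named genes 46 values lost and 8 gained the threshold over all alternatives, 1 was reversed, and 1503 stayed the same. Depth limits hosts with few counts, such as those at 1 to 3 counts in a group.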

Other observations

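Regions other than the members also lay earlier in mta libraries. With the members left out, 12.3%, 12.6% and 12.8% of the regions of the mta drought libraries had their midpoint in the first 50% of the span, against 8.20%, 10.4% and 8.68% in the WT drought libraries. In watered leaves the shares were 19.0%, 20.0% and 15.7% in mta and 10.7%, 8.84% and 5.83% in WT. These values come from the same peak lists as the choice of members and are given without a test.

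Folds of regions held by all 12 libraries are given by position. The 4096 in the last 50% of the span had median folds of 5.96 to 6.53 in the 6 mta libraries and 6.68 to 7.31 in the 6 WT libraries, which did not overlap. The 220 in the first 50% of the span had median folds of 4.91 to 6.73 in the mta libraries and 4.05 to 5.39 in the WT libraries, which overlapped. A fold is the authors' value for a peak within a library, so these medians describe peak lists and not amounts of m6A.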
